A study of Homo sapiens with 12 samples.

Results

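The nonsense-mediated decay (NMD) factors were followed in 2 pancreatic ductal adenocarcinoma (PDAC) cell lines. The set holds UPF1, UPF2, UPF3A, UPF3B, SMG1, SMG5, SMG6, SMG8 and SMG9, taken by gene symbol from the deposited tables. All 9 were found, each in 1 row, among the 48114 genes listed in each table (21404 of them without a symbol), and all 9 passed the filter on low values in PANC-1 cells. The series was made to study how the splicing regulators QKI and RBFOX2 shape the transcriptome of basal-like PDAC cells. RNA was sequenced as polyA-selected libraries, with 3 libraries in each of 4 groups. PANC-1 cells received a control siRNA (siCtrl), a pool of siRNAs against QKI (siQKI) or a pool against RBFOX2 (siRBFOX2), the last 2 at 40 nM, for 48 h. HPAF-II cells received siCtrl for 48 h. PANC-1 and HPAF-II are established lines from human tumors of the pancreas, so each line stands for 1 tumor. The siCtrl of HPAF-II comes from the sample labels, since the methods for sequencing describe PANC-1 cells. The labels call the libraries biological replicates and do not say whether they came from separate cultures, so p-values measure the spread between these libraries, which may be technical. In bulk RNA, fewer cells with a transcript and less of it per cell cannot be told apart.

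NMD removes mRNAs on which a ribosome stops too early, usually upstream of an exon junction complex that splicing left behind. UPF1 is the RNA helicase at the center of the pathway, UPF2 is its regulatory partner, and UPF3A and UPF3B are paralogs that link UPF2 to the exon junction complex. The kinase SMG1, held in a complex with SMG8 and SMG9, phosphorylates UPF1. SMG6 then cuts the mRNA, while SMG5 leads it to decapping and deadenylation.

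In GENCODE release 29, SMG1 and UPF3A share sequence with copies named as their pseudogenes. The values of these 2 members may depend on how the authors' counting placed reads of that sequence. The following windows are 90-base stretches of coding sequence from GENCODE release 29 on GRCh38, the same assembly as hg38. They were chosen to differ from the copy at a few bases, and reads over those bases can be told apart. Reads within unchanged stretches, whose shares follow below, could be assigned to either gene. In each of these windows the member and its copy differ at 2 bases (97.8% identity), which are printed in capitals. SMG1 (chr16:18896862-18896951, minus strand) is set against SMG1P1 (chr16:22454707-22454796, plus strand), and UPF3A (chr13:114291661-114291750, plus strand) against UPF3AP2 (chr17:20376338-20376427, minus strand).
SMG1: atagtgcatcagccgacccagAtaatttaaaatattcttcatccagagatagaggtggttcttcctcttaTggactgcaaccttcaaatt
SMG1P1: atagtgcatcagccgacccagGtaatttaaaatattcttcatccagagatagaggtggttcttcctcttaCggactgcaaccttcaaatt
UPF3A: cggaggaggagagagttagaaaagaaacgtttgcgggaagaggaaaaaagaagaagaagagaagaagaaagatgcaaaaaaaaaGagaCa
UPF3AP2: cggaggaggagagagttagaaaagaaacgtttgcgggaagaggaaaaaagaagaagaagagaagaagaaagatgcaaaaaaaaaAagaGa

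Over the whole transcript, 14.9% of the 150-base windows of UPF3A and 6.70% of those of SMG1 occurred unchanged in another gene. With 50-base windows the shares were 42.1% and 18.0%. SMG8 shared 8.32% of its 150-base windows with AC099850.2, a gene on the same strand that covers 11.2% of its exonic bases. None of the 150-base windows of UPF1, UPF2, UPF3B, SMG5, SMG6 or SMG9 occurred in another gene. A further limit concerns SMG6, of whose exonic bases 25.4% lie over other genes, mostly HIC1 on the opposite strand. The use of strand in the counting is not given in the sources used here, so reads of SMG6 and HIC1 cannot be told apart. The HIC1 row held 117 normalized counts in siCtrl libraries and the SMG6 row 4533. Both counts depend on how shared reads were assigned, which was not tested. The row of SMG5 spans 8691 bases beyond the GENCODE gene and covers TMEM79 and GLMP, and that of UPF3B begins 28711 bases inside the GENCODE gene.

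Each value stands for a whole gene of the FAST DB annotation, given here by its position on hg38. UPF1 is at chr19:18831938-18868232, UPF2 at chr10:11920022-12043170, UPF3A at chr13:114281584-114305817 and UPF3B at chrX:119834022-119852998. SMG1 is at chr16:18804854-18926416, SMG8 at chr17:59210010-59215249 and SMG9 at chr19:43727983-43754962. SMG5 is at chr1:156249224-156291516 and SMG6 at chr17:2059839-2303785.

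The deposited values summed to between 3.22e+08 and 3.48e+08 normalized counts in the PANC-1 libraries and between 2.80e+08 and 2.87e+08 in HPAF-II. Both knockdowns lowered their target, QKI to 19.7% of its siCtrl mean and RBFOX2 to 13.6%. RBFOX2 was also lower in siQKI libraries, at 81.9% of the siCtrl mean (limma, adjusted p = 0.0207, and 0.0508 to 0.114 in 7 of 18 other fits). The labels of the lines were checked against marker genes. CDH1 and EPCAM were higher in HPAF-II, VIM and ZEB1 were higher in PANC-1, and the leukocyte marker PTPRC was at 0 in all 6 control libraries. CD3E, PECAM1 and VWF reached at most 0.0838 rescaled counts in these libraries. The fibroblast genes COL1A1 and DCN were higher in HPAF-II. COL1A1 was at 17.7 to 19.8 there against 11.2 to 12.6 in PANC-1 siCtrl. DCN was at 0.0638 to 0.997, highest in replicate 1, against 0 in PANC-1 siCtrl. LYZ, a lysozyme gene of myeloid cells and secretory epithelia, reached 1052 to 1164 rescaled counts in HPAF-II and at most 0.0287 in PANC-1 siCtrl libraries. Within PANC-1, CDH1 was at 2.80 to 2.94 rescaled counts in siCtrl, 6.94 to 9.08 in siQKI and 3.95 to 4.77 in siRBFOX2. The collagen gene COL1A1 was at 11.2 to 12.6, 23.1 to 26.9 and 13.3 to 20.6. Of the other epithelial markers, KRT8 and KRT19 lay above siCtrl in siQKI, KRT18 lay below it and EPCAM overlapped, while all 4 lay below it in siRBFOX2. The part of these shifts in the values of the members was not tested. VIM stood at 15.2 rescaled counts in HPAF-II replicate 1 and at 0.283 and 0.300 in the other two replicates. HPAF-II replicate 3 lay farthest from the other libraries of its group, with a median distance of 0.47 on the log2 scale over all genes against 0.29 and 0.36. The log2 ratios of the members between the lines are therefore also given without it.

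Per kilobase of exon, UPF3B was the most abundant member in PANC-1 siCtrl libraries. Values were rescaled to a total of 1000000 per library for this order and divided by the length of the merged GENCODE exons. The order depends on that length. The longest coding transcript has 5348 bases against 8600 in merged exons for UPF1, and 4559 against 5304 for SMG5. For UPF3A these were 2387 against 5772, and for SMG1 16115 against 25988. An order by transcript length was not computed, and overlap of libraries does not measure this limit. The rows of SMG5 and UPF3B also do not match the GENCODE genes whose exons gave the length. That of SMG5 runs 8691 bases beyond its gene, and that of UPF3B begins 28711 bases inside it. The effect of this on their places was not tested. The levels were 15.7 ± 0.64 for UPF3B, 7.86 ± 0.15 for SMG5, 6.99 ± 0.15 for UPF1, 3.56 ± 0.091 for SMG1, 2.91 ± 0.18 for UPF3A and 2.23 ± 0.015 for UPF2 (rescaled counts per kb, mean ± SD, n = 3). SMG9 (1.58 ± 0.10), SMG8 (1.47 ± 0.17) and SMG6 (1.25 ± 0.12) closed the order, and the libraries of neighbors overlapped only among these 3 genes. In siQKI and siRBFOX2 libraries the first 6 places were held by the same genes in the same order, and SMG1 then overlapped with UPF3A. In HPAF-II the order was UPF3B (12.5 ± 2.5), SMG5 (8.60 ± 2.8), UPF1 (8.50 ± 1.4) and UPF2 (7.82 ± 2.0), each overlapping with the next. UPF3A (4.67 ± 0.54), SMG8 (2.77 ± 0.19), SMG9 (2.60 ± 0.26), SMG1 (1.57 ± 0.22) and SMG6 (0.967 ± 0.14) followed. SMG8 and SMG9 overlapped, and the other neighbors among these 5 genes did not. Places 2 to 4 rested on HPAF-II replicate 3. Without it, in an order computed once the values were known, UPF2 (8.97) stood above UPF1 (7.69) and SMG5 (7.04), and UPF3B (13.7) stayed first.

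To ask whether loss of either splicing regulator altered the NMD machinery, each knockdown was compared with the same siCtrl libraries. After QKI knockdown, SMG5 rose by 14.1% and SMG9 fell to 80.8% of the siCtrl mean, and these were the 2 members of 9 that passed the test. After RBFOX2 knockdown SMG5 rose by 17.0%, and it was the only member of 9 that passed. For comparison, 33.0% of the 22544 genes tested passed in siQKI and 26.5% in siRBFOX2. The median log2 fold change of the members was -0.0036 in siQKI and 0.073 in siRBFOX2, against 0.025 and 0.011 over all genes tested. The test was limma on log2(normalized count + 1) over the 9 PANC-1 libraries, with p-values adjusted over all genes tested and a threshold of 0.05.

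**Figure D1:**
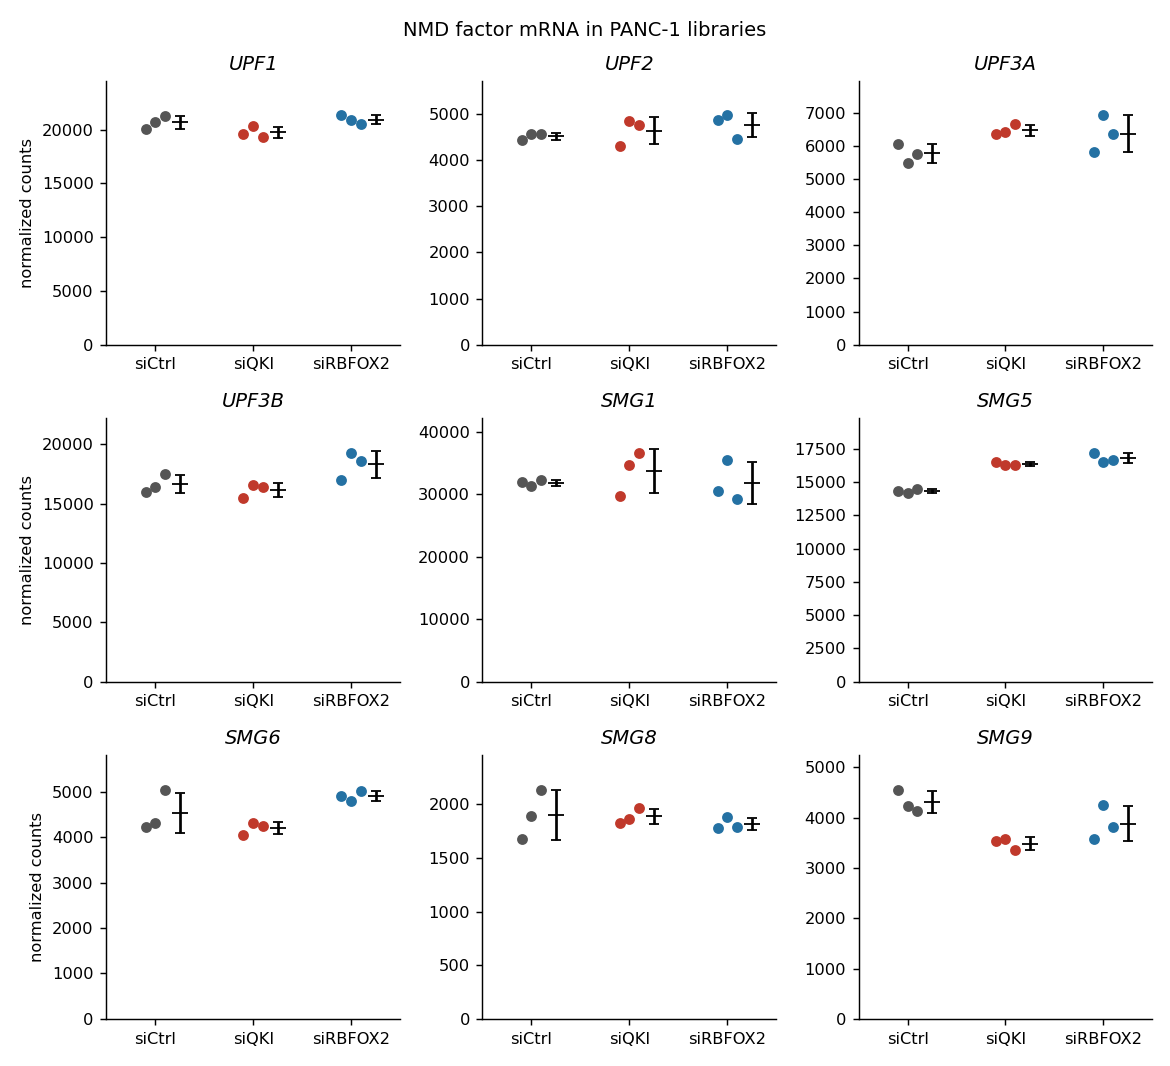
Normalized counts of the 9 members in each PANC-1 library (vertical axes from 0) for siCtrl, siQKI and siRBFOX2, with black bars for mean ± SD (n = 3). All siQKI and siRBFOX2 libraries lie above all siCtrl libraries for SMG5, and all siQKI libraries lie below them for SMG9.

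The core factors UPF1 and UPF2 did not pass the test in either knockdown. UPF1, the helicase, had 20103, 20688 and 21288 normalized counts in siCtrl, 19585, 20357 and 19298 in siQKI, and 21328, 20931 and 20504 in siRBFOX2. Both knockdowns overlapped with siCtrl, with log2 fold changes of -0.07 (95% CI -0.16 to 0.02) and 0.02 (-0.07 to 0.10). All siQKI libraries lay below all siRBFOX2 libraries, but the difference of -0.08 did not pass (limma adjusted p = 0.182). UPF2 ranged from 4437 to 4576 in siCtrl, from 4302 to 4850 in siQKI and from 4460 to 4973 in siRBFOX2. Its log2 fold changes were 0.03 (95% CI -0.11 to 0.17) and 0.07 (-0.07 to 0.21).

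The UPF3 paralogs gave values near the threshold. UPF3A had 6068, 5499 and 5768 normalized counts in siCtrl, 6356, 6413 and 6661 in siQKI, and 5809, 6924 and 6366 in siRBFOX2. All siQKI libraries lay above all siCtrl libraries, as was the case in 1 direction or the other for 44.7% of all genes tested, whereas the siRBFOX2 libraries overlapped with siCtrl. The log2 fold change of UPF3A was 0.17 in siQKI (SE 0.07, limma adjusted p = 0.0685), and it passed the threshold in 5 of 18 other fits, the 2 with another scaling among them. In siRBFOX2 it was 0.14 (limma adjusted p = 0.150, and 0.0425 without siRBFOX2 replicate 1).

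UPF3B had 15990, 16421 and 17469 normalized counts in siCtrl, 15503, 16546 and 16416 in siQKI, and 16998, 19299 and 18583 in siRBFOX2. Replicates 2 and 3 of siRBFOX2 were the highest libraries, but replicate 1 fell within the siCtrl range. The log2 fold change was -0.04 in siQKI (limma adjusted p = 0.617) and 0.14 in siRBFOX2 (limma adjusted p = 0.0742). The latter passed the threshold in 5 of 18 other fits, among them those without siCtrl replicate 3 (adjusted p = 0.0479) and without siRBFOX2 replicate 1 (0.0214).

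In the SMG1 complex the kinase itself did not pass, whereas its subunit SMG9 did in siQKI. SMG9 had 4556, 4240 and 4140 normalized counts in siCtrl, 3532, 3578 and 3348 in siQKI, and 3569, 4253 and 3812 in siRBFOX2. All siQKI libraries lay below all siCtrl libraries, and the siRBFOX2 libraries lay between and overlapped with both. The log2 fold change of SMG9 was -0.31 in siQKI (SE 0.07, limma adjusted p = 0.0043), and it passed in all 18 other fits. In siRBFOX2 it was -0.16 (95% CI -0.31 to 0.00040, limma adjusted p = 0.140, and 0.0387 without siRBFOX2 replicate 2). The difference between the knockdowns, -0.15, did not pass (limma adjusted p = 0.173).

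SMG1 had 31893, 31252 and 32276 normalized counts in siCtrl, 29750.0, 34742 and 36665 in siQKI, and 30467, 35536 and 29298 in siRBFOX2. The knockdown libraries lay on both sides of siCtrl, and their SD was 3569 and 3316 against 517 in siCtrl. The log2 fold changes were 0.08 (95% CI -0.08 to 0.24) and -0.01 (-0.16 to 0.15). SMG8, the third subunit, had 1678 to 2138 normalized counts in siCtrl, 1827 to 1969 in siQKI and 1779 to 1883 in siRBFOX2. Its log2 fold changes were -0.0036 (95% CI -0.20 to 0.20) and -0.060 (-0.26 to 0.14).

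The 6 rows of SMG1 pseudogenes in the tables were read beside SMG1. SMG1P6 held 41456 ± 1775 normalized counts in siCtrl beside 31807 ± 517 in the SMG1 row, values that are not per length, and its span includes BOLA2 and SLX1B. SMG1P7, a row of low counts, rose from 431 ± 48.2 to 751 ± 55.4 in siQKI (log2 fold change 0.80, limma adjusted p = 0.0040). SMG1P2 fell in siRBFOX2 to 86.4% of siCtrl (log2 fold change -0.21, limma adjusted p = 0.0243). No row carried the symbol of a UPF3A pseudogene, so these were not analysed here.

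Among the effectors, SMG5 was the member that rose in both knockdowns. It had 14319, 14192 and 14507 normalized counts in siCtrl, 16524, 16252 and 16295 in siQKI, and 17207, 16493 and 16642 in siRBFOX2. The lowest knockdown library lay above the highest siCtrl library, and the siQKI and siRBFOX2 libraries overlapped. For siRBFOX2 against siCtrl, 37.9% of all genes tested were likewise apart. The log2 fold change was 0.19 in siQKI (SE 0.04, limma adjusted p = 0.0017) and 0.23 in siRBFOX2 (SE 0.04, limma adjusted p = 0.0006). Both passed in all 18 other fits, each with a higher level after knockdown, and both rest on the same siCtrl libraries. These changes were smaller than the median size of all called changes, 0.37 and 0.32 on the log2 scale. The TMEM79 row that lies within the span of SMG5 held 883 ± 107 normalized counts in siCtrl and did not pass in either knockdown (limma adjusted p = 0.298 and 0.381). No row that overlaps with this span carries the symbol of GLMP, the other coding gene there. Whether reads of GLMP or TMEM79 entered the SMG5 row was not tested.

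SMG6, the endonuclease, had 4232, 4320 and 5047 normalized counts in siCtrl, 4049, 4319 and 4244 in siQKI, and 4900, 4790 and 5010.0 in siRBFOX2. Replicate 3 of siCtrl stood above the other two and above all siQKI libraries. Neither knockdown passed against siCtrl, with log2 fold changes of -0.10 (limma adjusted p = 0.292) and 0.12 (limma adjusted p = 0.257, and 0.0454 without siCtrl replicate 3). The SRR row, whose span overlaps with that of SMG6 on the opposite strand, rose in both, from 495 ± 117 normalized counts to 985 ± 31.1 and 820 ± 24.5 (limma adjusted p = 0.00013 and 0.0023).

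Set directly against each other, the knockdowns differed for 2 of 9 members, where 21.5% of all genes tested did (9.93% higher and 11.6% lower in siQKI). UPF3B was lower in siQKI than in siRBFOX2 (log2 fold change -0.18, SE 0.05, limma adjusted p = 0.0263), and so was SMG6 (-0.22, SE 0.07, limma adjusted p = 0.0341). All 3 siQKI libraries lay below all siRBFOX2 libraries for both genes and for UPF1, as was the case in 1 direction or the other for 35.2% of all genes tested. UPF3B passed in 12 of 18 other fits and SMG6 in 11, and the highest adjusted p was 0.120 and 0.112. The call of UPF3B was lost when siQKI replicate 1 or 3 or siRBFOX2 replicate 2 or 3 was left out. That of SMG6 was lost when any siQKI replicate or siRBFOX2 replicate 1 or 3 was left out.

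**Figure D2:**
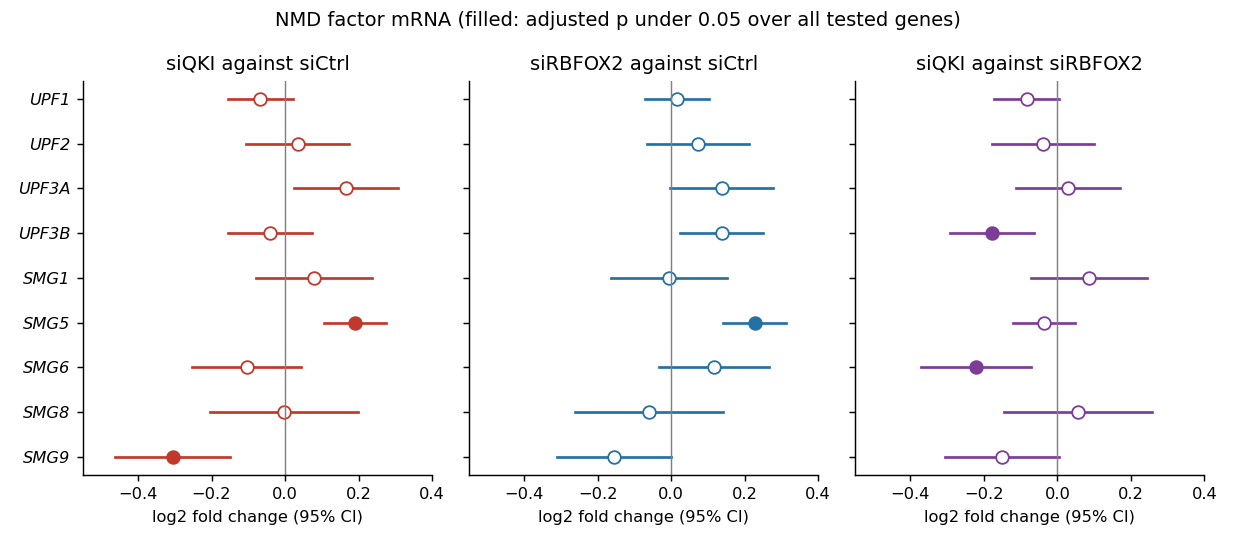
Log2 fold change of each member (horizontal axis) with its 95% confidence interval from the limma fit of the 9 PANC-1 libraries, in 3 comparisons, with filled points for an adjusted p under 0.05. SMG5 and SMG9 are filled in siQKI against siCtrl, SMG5 in siRBFOX2 against siCtrl, and UPF3B and SMG6 in siQKI against siRBFOX2.

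Because a ratio of 2 genes within a library does not depend on how the library was scaled, ratios between partners were compared as well, as differences on the log2 scale from PANC-1 siCtrl. In siQKI the ratio of SMG5 to SMG6 was 1.91 to 2.03 against 1.52 to 1.76 in siCtrl, and that of SMG9 to SMG1 was -3.45 to -3.07 against -2.96 to -2.81. The ratio of UPF3A to UPF3B was -1.37 to -1.29 in siQKI against -1.60 to -1.40. The libraries did not overlap in any of these 3 ratios, with differences of 0.29, -0.38 and 0.21. SMG5 and SMG9, each part of 1 of them, had passed on their own in siQKI. The share of other gene pairs without overlap was not computed. In siRBFOX2 all 5 ratios overlapped with siCtrl, and the differences lay between -0.15 and 0.11. Each non-overlapping comparison had an exact two-sided permutation p of 0.1, the smallest that 3 against 3 libraries allow, and 0.1875 after adjustment over the 15 tests, so this design cannot pass the threshold.

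**Figure D3:**
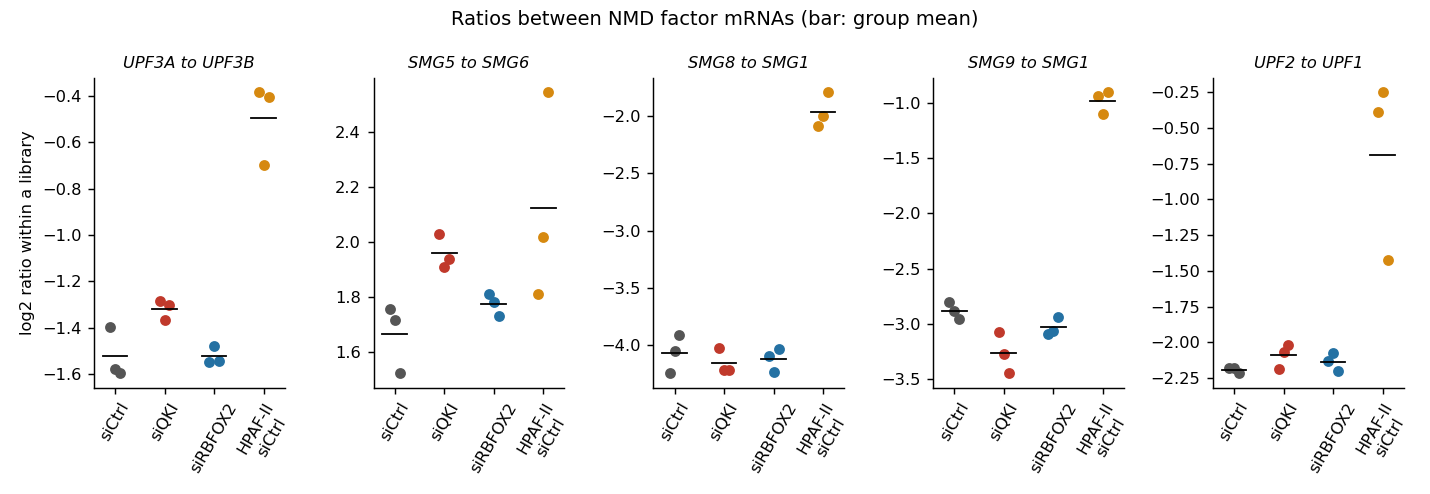
Log2 ratio of 2 members within each library (vertical axes, a scale of its own per panel) in the 3 PANC-1 groups and in HPAF-II siCtrl, with bars for group means. The HPAF-II libraries lie above all PANC-1 siCtrl libraries in every panel.

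The lines themselves were set side by side through their control libraries. In HPAF-II, UPF2 was 3.42-fold higher than in PANC-1, SMG8 1.89-fold, SMG9 1.64-fold and UPF3A 1.60-fold, whereas SMG1 was 2.29-fold lower. These 5 of 9 members were at least 1.5-fold apart with no overlap of libraries, and 54.0% of the 24673 genes expressed in either line met the same rule (26.9% higher and 27.1% lower in HPAF-II). In 8 of 9 members, all but SMG5, the libraries of the lines did not overlap, as for 63.7% of those genes. The tables of the lines were normalized separately and the line cannot be told apart from the table, so no test across genes was run, and exact tests were kept to the ratios within a library. The values are deposited values rescaled to a total of 1000000 per library. Without this rescaling, UPF3B and SMG6 met the rule in place of UPF3A and SMG9. At a limit of 2-fold only UPF2 and SMG1 met it.

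UPF2 had 50.9, 55.1 and 32.5 rescaled counts in HPAF-II and 13.1, 13.1 and 13.3 in PANC-1. The HPAF-II libraries were spread widely, but the lowest was still above the highest PANC-1 library. UPF3A had 29.1, 28.5 and 23.3 against 17.9, 15.8 and 16.7, and its paralog UPF3B had 38.0, 46.3 and 30.9 against 47.2, 47.2 and 50.6. For both paralogs the lines did not overlap, and UPF3B stood at a log2 ratio of -0.35, under the 1.5-fold limit.

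SMG1 had 42.9, 44.9 and 34.3 rescaled counts in HPAF-II and 94.1, 89.8 and 93.5 in PANC-1. Its partners went the other way, SMG8 with 10.1, 11.2 and 9.90 against 4.95, 5.42 and 6.19, and SMG9 with 22.5, 21.0 and 18.4 against 13.4, 12.2 and 12.0. The ratio of SMG8 to SMG1 was thus 4.32-fold higher in HPAF-II and that of SMG9 to SMG1 3.75-fold, with no overlap (exact permutation p = 0.1 for each, the smallest possible). When SMG1 and its 6 pseudogene rows were summed, which was added once the values were known, the log2 ratio between the lines moved from -1.19 to -0.59. The sum was 191 ± 12.0 rescaled counts in HPAF-II and 288 ± 6.41 in PANC-1, and SMG1 made up 21.5% and 32.1% of it. SMG1P6, whose span includes BOLA2 and SLX1B, held 93.4 ± 22.6 and 120 ± 5.56 of these counts. The rows of SMG1P1 and SMG1P3 also span other coding genes. The part of reads from such genes in the sum was not tested.

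UPF1 had 66.6, 65.6 and 87.1 rescaled counts in HPAF-II and 59.3, 59.4 and 61.7 in PANC-1. The lines did not overlap, but the log2 ratio was 0.27, and -0.01 in the deposited values without rescaling, where the median of all genes was -0.29. SMG6 had 11.4, 8.55 and 10.7 against 12.5, 12.4 and 14.6, a log2 ratio of -0.37. SMG5 had 40.0, 34.7 and 62.2 against 42.3, 40.8 and 42.0, so the lines overlapped. HPAF-II replicate 3 was the highest library for UPF1 and SMG5 and the lowest for UPF2, UPF3A, UPF3B, SMG1, SMG8 and SMG9. Without it the same 5 members met the rule, and the log2 ratios were 2.01 for UPF2, 0.78 for UPF3A, -1.07 for SMG1, 0.95 for SMG8 and 0.80 for SMG9. Those of the other members became 0.14 for UPF1, -0.20 for UPF3B and -0.41 for SMG6, and that of SMG5 turned from 0.08 to -0.16.

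**Figure D4:**
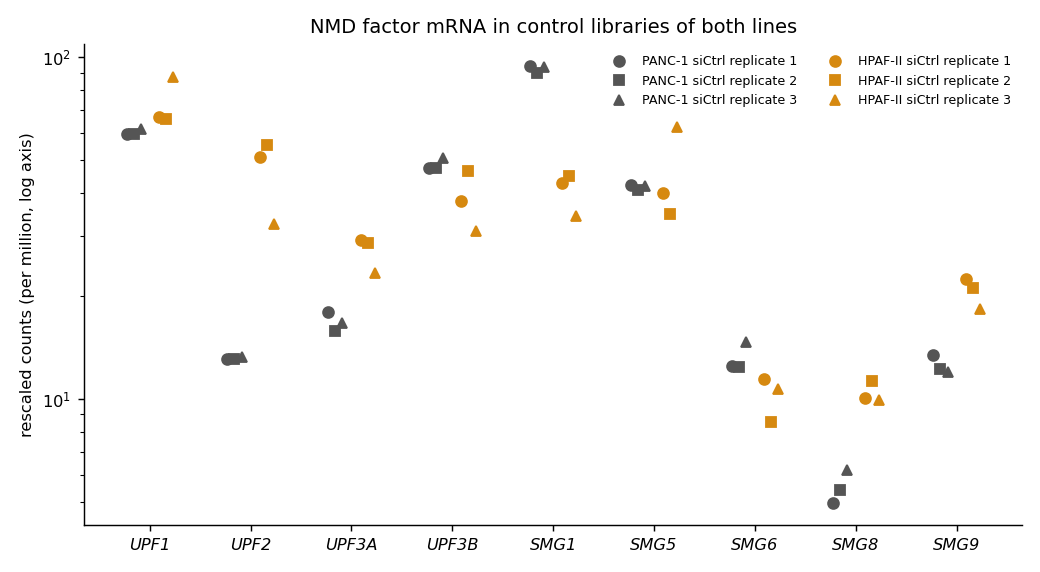
Rescaled counts (log axis, total of 1000000 per library) of each member in the 3 PANC-1 siCtrl and 3 HPAF-II siCtrl libraries, with a symbol for each replicate. UPF2, UPF3A, SMG8 and SMG9 are higher and SMG1 is lower in all HPAF-II libraries, and SMG5 overlaps.

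The rest of the pathway was read from 5 lists of genes, chosen with earlier results of these data known. Among 11 other NMD factors, 5 passed in siQKI (1 higher, 4 lower) and 6 in siRBFOX2 (2 higher, 4 lower), against 14.9% higher and 18.1% lower of all genes tested in siQKI and 12.0% and 14.5% in siRBFOX2. The direction of such counts depends on scaling. With either of the other scalings the siQKI split of this list was 3 higher and 3 lower, and over all genes the share of higher calls was 58.0% in place of 45.2% with the upper quartile. PNRC2, which links UPF1 to the decapping enzyme, had the largest change, from 63948 ± 775 normalized counts in siCtrl to 91340 ± 3138 in siQKI and 100404 ± 485 in siRBFOX2 (log2 fold changes 0.51 and 0.65). CWC22, a splicing factor that brings EIF4A3 to the spliceosome, fell in both (-0.37 and -0.27). The ATPase RUVBL2 fell in both as well (-0.19 and -0.31), its partner RUVBL1 fell in siRBFOX2 (-0.30), and the release factor GSPT1 fell in siQKI (-0.25).

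Of 9 genes of the exon junction complex and its partners, 5 passed in siQKI and 4 in siRBFOX2, all lower, and the list median was -0.17 in both. Of all genes tested, 18.1% and 14.5% passed as lower. With the other scalings the list median was -0.10 in siQKI and -0.11 or -0.14 in siRBFOX2. In these fits 3 passed in siQKI and 2 or 3 in siRBFOX2, again all lower, and without the mean-variance trend 2 passed in each. The siRBFOX2 count was also 2 without siRBFOX2 replicate 2. RBM8A, a core subunit, fell from 135741, 126114 and 132403 normalized counts in siCtrl to 89901, 89891 and 96405 in siQKI and 93172, 92884 and 104344 in siRBFOX2. All knockdown libraries lay below all siCtrl libraries, with log2 fold changes of -0.51 and -0.44 (limma adjusted p = 1.2e-06 and 9.6e-06). RNPS1 (-0.19 and -0.26) and SAP18 (-0.21 and -0.22) fell in both, MAGOH, the partner of RBM8A, fell in siQKI (-0.34), and the helicase EIF4A3 fell in both (-0.17 and -0.15). SAP18 kept its call in 13 of 18 other fits for either knockdown, and EIF4A3 in 14 for siQKI and 11 for siRBFOX2, and MAGOH in 17 for siQKI. MAGOH and MAGOHB encode near-identical proteins, and whether reads were split between their mRNAs was not tested.

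Of 17 cap, poly(A) and mRNA decay genes, 8 passed in each knockdown, 3 higher and 5 lower in siQKI and 1 higher and 7 lower in siRBFOX2. The shares over all genes tested were 33.0% and 26.5%. With the upper quartile the splits became 5 higher and 2 lower, and 3 higher and 5 lower. In siQKI the count was 5 (1 higher, 4 lower) without siQKI replicate 3 and likewise without the trend. DCP2, the catalytic subunit of the decapping enzyme, had the largest difference of this list between the knockdowns. It had 3772, 3776 and 3753 normalized counts in siCtrl, 4559, 4854 and 4835 in siQKI, and 2749, 2855 and 2535 in siRBFOX2. The 3 groups did not overlap, with all siQKI libraries above and all siRBFOX2 libraries below siCtrl. The log2 fold changes were 0.33 and -0.48 against siCtrl and 0.81 between the knockdowns (limma adjusted p = 0.00091, 7.1e-05 and 5.5e-07), and each passed in all 18 other fits. PAN3, the regulatory subunit of a deadenylase, fell in siRBFOX2 (-0.46) and was higher in siQKI than in siRBFOX2 (0.50). Its catalytic partner PAN2 rose in both (0.25 and 0.29, in siQKI in 15 of 18 other fits), and LSM1, of the complex that promotes decapping, fell in both (-0.29 and -0.34). The cap-binding protein gene NCBP1 fell in both (-0.26 and -0.22).

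Of the 4 adaptors through which UPF1 acts in other decay pathways, 2 passed in siQKI and 3 in siRBFOX2, where 33.0% and 26.5% of all genes tested did. SLBP, which binds histone mRNAs, fell in both (-0.30 and -0.38), and STAU2, a Staufen protein, rose in both (0.34 and 0.17). The latter rise in siRBFOX2 passed in 9 of 18 other fits. STAU1, its paralog, fell in siRBFOX2 (-0.35) and was higher in siQKI than in siRBFOX2 (0.29).

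Of 16 transcripts known as natural NMD substrates, 3 passed in siQKI (2 higher, 1 lower) and 6 in siRBFOX2 (5 higher, 1 lower), against 33.0% and 26.5% of all genes tested. With the other scalings 5 or 6 passed in siQKI and 7 or 8 in siRBFOX2, each with 1 lower. Both counts and directions depended on the fit. In siQKI 5 passed without siCtrl replicate 1 (2 higher, 3 lower), and also without siRBFOX2 replicate 2 or with only the groups compared (3 higher, 2 lower). In siRBFOX2 the split was 3 higher and 3 lower without siRBFOX2 replicate 3, and 2 passed without the trend, both higher. The medians were -0.022 and 0.0054, beside 0.025 and 0.011 over all genes. CDKN1A, a cell cycle inhibitor, rose in siQKI (0.36) and was higher there than in siRBFOX2 (0.39), and GADD45B rose (0.20) while UPP1 fell (-0.18) in siQKI. The call of GADD45B held in 15 of 18 other fits. The stress-response genes ATF4 (0.30), ATF3 (0.32) and DDIT3 (0.34) rose in siRBFOX2, and the noncoding RNA ZFAS1 fell (-0.38) although its libraries overlapped with siCtrl. These calls held in 16 of 18 other fits for ATF3, 17 for DDIT3 and 15 for ZFAS1. Between the knockdowns SNHG1 (-0.35), GADD45A (-0.32) and ATF3 (-0.28) were lower in siQKI, the last with overlapping libraries and in 12 of 18 other fits. These genes also respond to other signals, whose part in the result was not tested.

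**Figure D5:**
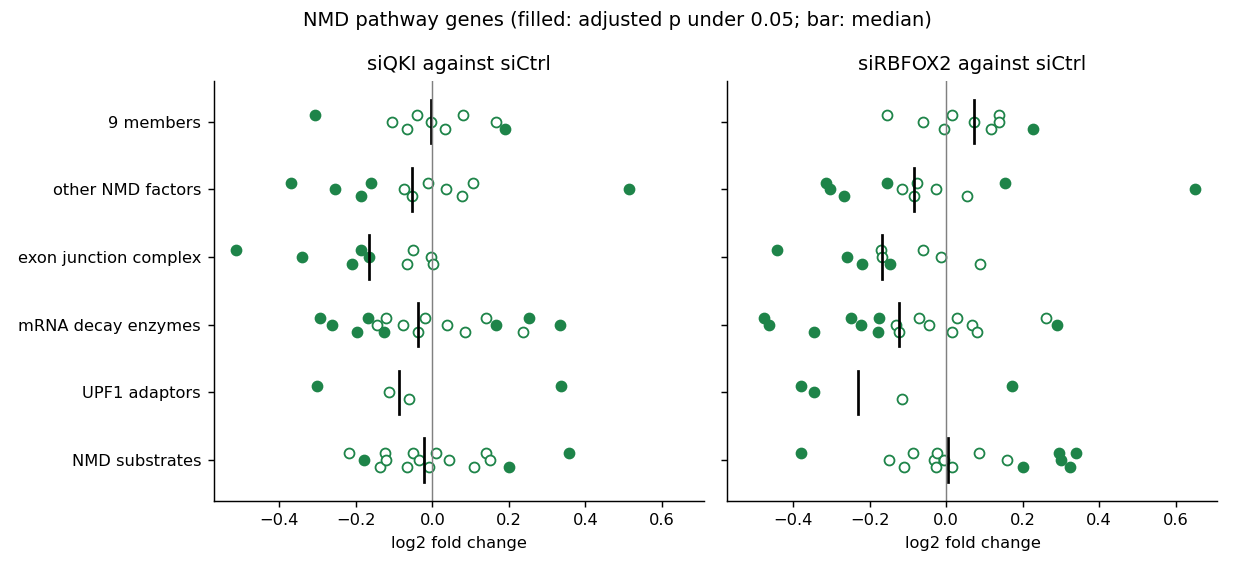
Log2 fold change (horizontal axis) of each gene of the 9 members and of the 5 pathway lists in siQKI and siRBFOX2 against siCtrl, with filled points for an adjusted p under 0.05 and bars for list medians. All filled points of the exon junction complex lie below 0, and PNRC2, the rightmost point of the other NMD factors, reaches 0.51 and 0.65.

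Between the lines, 5 of the 9 exon junction complex genes and 9 of the 17 decay genes were higher in HPAF-II by the rule above, where 26.9% of all expressed genes were, and 1 decay gene was lower. Of the 11 other NMD factors 3 were higher and 2 lower, of the 4 adaptors 1 was higher, and of the 16 substrates 3 were higher and 5 lower, where 27.1% of all expressed genes were lower. The median log2 ratio was 0.74 for the exon junction complex, 0.63 for the decay genes, 0.077 for the other NMD factors, 0.22 for the adaptors and -0.29 for the substrates. These counts and medians rest on the rescaled values and can change with scaling. Without rescaling, the median of all expressed genes was -0.29 in place of 0.015. The counts and medians of the lists were not computed in that setting. DCP1B, the lower decay gene, was at 0.0353, 0 and 0 rescaled counts in HPAF-II and at 1.91 to 2.23 in PANC-1.

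Genes with a profile like that of the called members were named by Pearson's r over the 9 PANC-1 libraries among 15249 genes, a description in which all libraries are shared. The closest to SMG5 were CSNK1G2 (r = 0.997), ELMO2 (0.989) and ZDHHC9 (0.989), and the closest to SMG9 were RAB12 (0.968), BCL2L2 (0.964) and ANKRD11 (0.949).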

How the data were processed

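The authors sequenced polyA-selected libraries as read pairs and obtained gene counts on the FAST DB annotation, and the submitters' processing notes name STAR 2.7.5a, SAMtools, Picard, FastQC, DESeq2 and hg38. The deposited signal values are gene counts divided by the authors with a size factor per library, in 1 table of 9 PANC-1 libraries and 1 of 3 HPAF-II libraries, with 48114 genes each (21404 without a symbol). They are called normalized counts in the text. Every value is a whole multiple of 1 step (within 0.01), but 82.1% to 84.8% of values of 1 to 30 steps are multiples of 3, so depth in fragments is unknown and precision was taken from replicates. A test on counts was therefore not run.

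For the PANC-1 groups, a limma model (version 3.58.1, R 4.3.3, trended variance, no block) was fitted to log2(normalized count + 1) over 22544 genes with a mean of at least 10, with Benjamini-Hochberg adjustment. The pseudocount understates changes of low genes. The script was tested on simulated data. For siQKI against siCtrl, 106 of 200 changed genes among 22544 were recovered with 10 false calls. Among the changed genes with high means, 90 of 94 were recovered. Recovery at the size of the log2 fold changes of the members was not tested. HPAF-II and PANC-1 were described after rescaling to a total of 1000000, with a pseudocount of 0.01. Gene positions came from the files, exon lengths and sequences from GENCODE release 29, and within-library ratios were tested by exact permutation in Python 3.11.15 with scipy 1.17.1.

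The labels gave the groups. The 18 other fits used pseudocounts of 0.1 and 10, a mean of at least 50 or no filter, 2 other scalings, no trend, a replicate block, only the groups compared, and each of the 9 libraries left out. The members and lists were chosen with earlier results of these data known. Every member, both siRNA targets, pseudogene rows of members, up to 4 called genes with the largest change per list and comparison, and the 3 genes most like each called member are named by rule. HIC1, SRR, TMEM79 and DCP1B were named after their values were seen. Promoter sequences were not used here, and values of 1 listed gene are not reported here.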

Additional observations from a re-analysis of the deposited data

How the results depend on the processing

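The rise of SMG5 in both knockdowns and the fall of SMG9 in siQKI kept their direction and their side of the threshold at 0.05 in all 18 other fits, with a highest adjusted p of 0.0105 and 0.0085 for SMG5 and 0.0307 for SMG9 (limma). The count of called members in siQKI was 2 or 3 in every alternative. In siRBFOX2 it was 2 with the upper quartile, with the same total and with a replicate block, and 1 to 3 when 1 library was left out. In siQKI against siRBFOX2 it was 0 without the mean-variance trend, with the upper quartile and at an adjusted p under 0.01, and 0 to 2 when 1 library was left out. The HPAF-II count was 2 (UPF2, SMG1) at 2-fold. Without rescaling it was again 5, but with UPF3B and SMG6 in place of UPF3A and SMG9. Replicate numbers did not pair the samples (same-number deviations correlated at -0.033 to 0.024 over 9 combinations, different numbers at -0.033 to 0.038 over 18), and the replicate block, which added UPF3B in siRBFOX2, left 7336, 5891 and 4758 calls over all genes in place of 7432, 5985 and 4844. Values near 0 changed sign. With the same total and the upper quartile, siQKI gave 0.020 and 0.021 for UPF3B and 0.057 and 0.059 for SMG8, and siRBFOX2 gave 0.050 and 0.025 for SMG1. Without HPAF-II replicate 3, the ratio of SMG5 between the lines was -0.16 in place of 0.08. With 1 library left out, the lowest and highest log2 values were -0.090 and 0.084 for SMG8 in siQKI, -0.0047 and 0.037 for UPF1, -0.090 and 0.049 for SMG1 and -0.15 and 0.028 for SMG8 in siRBFOX2, -0.086 and 0.014 for UPF2 and -0.036 and 0.091 for UPF3A between the knockdowns, and in siRBFOX2 -0.036 and 0.064 for the ratio of UPF3A to UPF3B and -0.14 and 0.025 for that of SMG8 to SMG1. The share of higher calls over all genes moved from 45.3% to 53.5% and 60.1% in siRBFOX2 with the upper quartile and the same total, from 45.2% to 57.7% in siQKI with the same total, and from 46.2% to 55.3% between the knockdowns with the upper quartile. The cause of these shifts was not tested. The planned edgeR and DESeq2 fits were not run, since whole reads could not be recovered, nor was a filter for the ratios, which use only members past it. Depth in fragments is unknown.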
